A study of Mus musculus with 9 samples.

Results

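The genes described here are 45 regulators of pre-mRNA splicing: 18 hnRNP proteins, 3 polypyrimidine tract-binding (PTB) proteins, 12 SR and TRA2 proteins, 9 regulators of the RBFOX, MBNL, CELF, KHDRBS and ELAVL families, and 3 factors that recognise the 3' splice site. They were chosen by gene name from the known families, leaving out Hnrnpll, the gene targeted in the study, and its paralog Hnrnpl. All 45 were found among the 49326 named genes of the files, and all 45 were among the 24794 genes that passed the filter on low counts, so no member was lost before testing.

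hnRNP and PTB proteins bind nascent transcripts and in many cases repress the use of nearby exons, whereas SR and TRA2 proteins bind exonic enhancers and favour exon inclusion. RBFOX, MBNL and CELF proteins act in either direction according to where they bind relative to the exon, and their relative levels shift as stem cells leave pluripotency. Several of these genes control each other's transcripts, the best known case being the repression of a Ptbp2 exon by PTBP1.

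Each library holds polyA+ RNA, either from undifferentiated mouse embryonic stem cells at day 0 or from embryoid bodies grown out of them in hanging drops for 4 or 8 days. Embryoid bodies are aggregates in which stem cells differentiate into derivatives of the germ layers. Hnrnpll-/- cells (KO) came from the lines G6 and H8, each with 1 library at day 0, day 4 and day 8, and wild-type cells (WT) gave 1 library at each of these days. The stem cells of both genotypes were kept in serum with leukemia inhibitory factor. How the KO lines were derived and whether libraries came from separate cultures is not given in the sources used here, so p-values measure only the spread between these samples. WT is a single line, so genotype and line cannot be told apart in any comparison.

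Total counts were 54218051 (G6) and 61626609 (H8) in the KO libraries of day 0 and ranged from 113059196 to 184952442 in the other libraries. Low counts fell on multiples of 4 in 42.6% to 43.5% of cases in the KO libraries of day 0 and in 30.5% to 33.2% elsewhere, against 25% by chance. The reason was not tested, and counts cannot be taken as independent molecules. Depth cannot be told apart from genotype at day 0, or in the interaction of genotype with day 4 against day 0. Hnrnpll itself had 54.9 TPM (G6) and 24.5 TPM (H8) in KO against 77.1 TPM in WT at day 0, 61.2 and 38.6 TPM in KO against 101.1 TPM in WT at day 4, and 56.5 and 43.5 TPM in KO against 111.9 TPM in WT at day 8. TPM is a level scaled by gene length and by the library's total. Both KO lines lay below WT at each day, and the difference over all days was -1.01 (SE 0.23) on the log2 scale, with an adjusted p of 0.0726. With the KO line as a replicate block that adjusted p was 0.0357, and at day 8 it was 0.0458 in place of 0.212. Differences are KO minus WT throughout, from edgeR's quasi-likelihood test on counts, with Benjamini-Hochberg adjustment over all genes tested and a threshold of 0.05.

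Few of the 45 genes passed that threshold, and each one that did in a comparison of KO with WT was lower in KO. Khdrbs1 was lower at day 0, at day 8 and over all days, Ptbp2 at day 8 and over all days, and Mbnl1 and Hnrnpr at day 8. At day 0, 1 member was lower and 0 were higher, where 4.33% and 1.11% of all genes were lower and higher. At day 8, 4 members (8.89%) were lower and 0 were higher, where 4.86% of all genes were lower and 5.01% higher. Over all days 2 members (4.44%) were lower and 0 higher, against 0.597% and 0.387% of all genes. In that comparison libraries of different days from 1 WT line and 2 KO lines served as replicates. Repeated samples of a line are not independent, so its p-values can overstate the replication. At day 4 edgeR called 0 members in either direction, against 0.00403% of all genes in each direction, with 6 members (13.3%) at an unadjusted p under 0.05, all lower, where 13.5% of all genes had such a p. DESeq2 called 1 member at day 4 (Khdrbs1) among 1320 genes, and limma on log2 TPM called 0.

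Most of the set moved little. The log2 difference was within 0.5 of 0 for 73.3%, 80% and 82.2% of members at day 0, day 4 and day 8, against 42%, 52.5% and 37.6% of all genes tested. The members are well expressed, with a mean of at least 10 TPM in 42 of the 45. The genes tested were not matched to them by level, and many are low. Whether these shares go with level or with splicing regulators as a class was not tested. More members lay below 0 than above it, with 29 of 45 below 0 at day 0, 34 at day 4, 31 at day 8 and 38 over all days (64.4%, 75.6%, 68.9% and 84.4%). Of all genes tested, 50.9%, 44.8%, 46% and 51.1% lay below 0 in the same comparisons. With scaling to total counts, 33 members lay below 0 over all days. Between the 2 KO lines (H8 minus G6), 32 of 45 members (71.1%) also lay below 0, against 49.4% of all genes. The member median there was -0.07. More members below 0 than above it is thus not particular to KO against WT. The median member difference was -0.16, -0.20 and -0.25 at day 0, day 4 and day 8, where the median over all genes was -0.02, 0.07 and 0.08. The summed TPM of the 45 genes was 13128 and 12767 in KO (G6, H8) against 14454 in WT at day 0. It was 12514 and 12024 in KO against 14237 in WT at day 4, and 13158 and 11729 in KO against 15212 in WT at day 8, so both KO lines were below WT at each day. In bulk RNA, fewer cells that express a gene and less RNA per cell cannot be told apart.

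**Figure D1:**
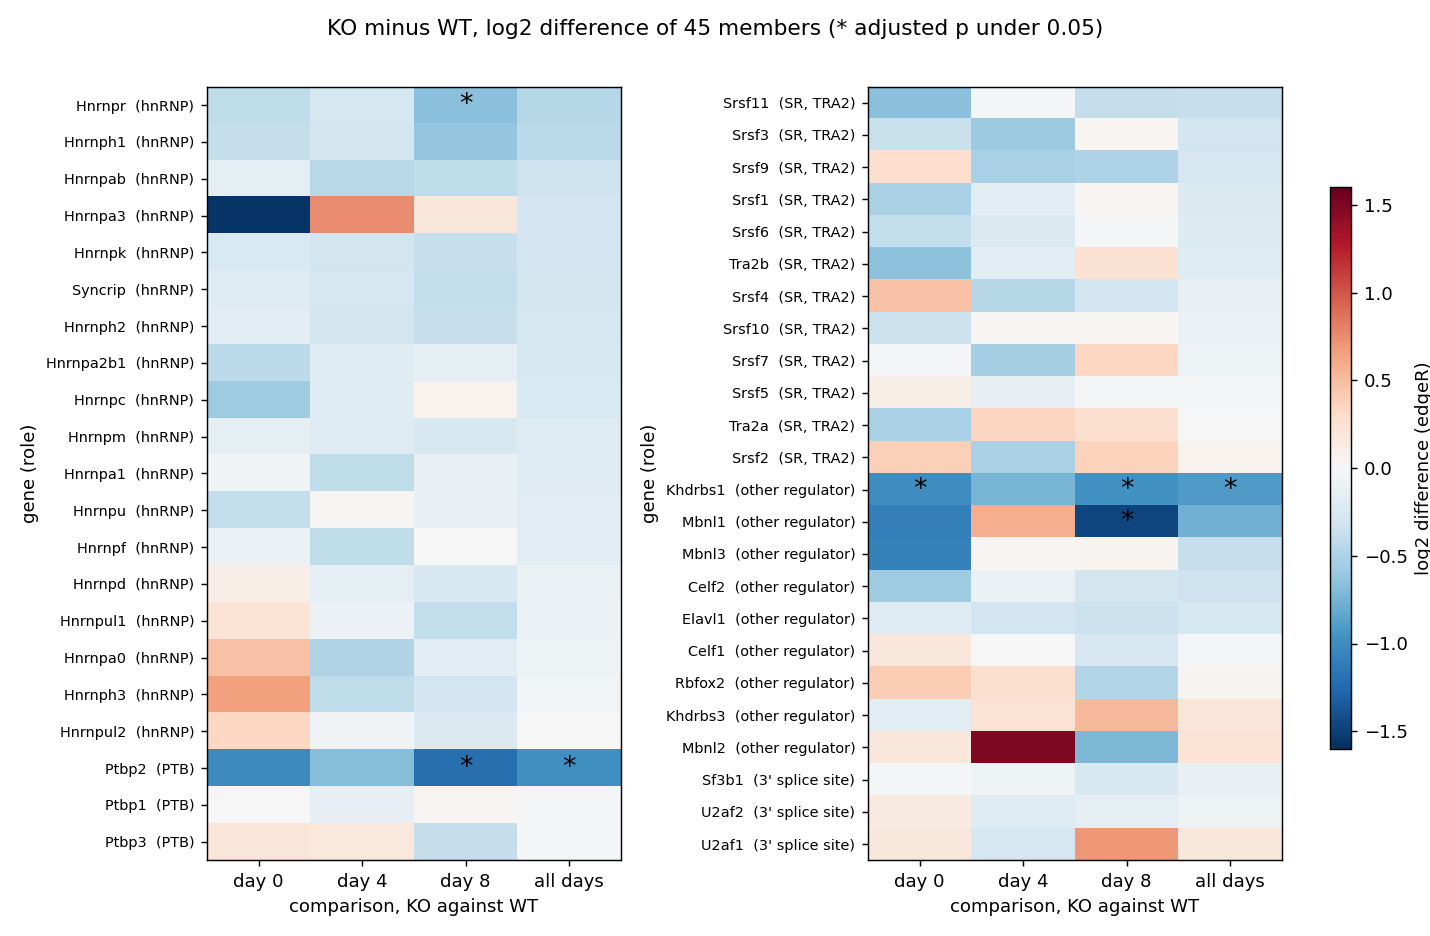
Log2 differences (KO minus WT, edgeR on counts) of the 45 genes at day 0, day 4, day 8 and over all days, as colour from blue (lower in KO) to red (higher in KO), grouped by role and sorted within a role by the difference over all days; an asterisk marks an adjusted p under 0.05. Asterisks stand on blue cells of Khdrbs1, Ptbp2, Mbnl1 and Hnrnpr only, and most other cells are pale.

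In 6 of the 45 genes (13.3%) TPM was below the WT library in both KO lines at all 3 days, against 9.67% of the 24783 genes with both kinds of value. These were Khdrbs1, Ptbp2, Hnrnpr, Hnrnph1, Hnrnpk and Celf2. TPM was above WT in both lines at all 3 days in 0 members, against 10.2% of genes.

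KHDRBS proteins (SAM68 and its relatives) are STAR-domain RNA-binding proteins that couple signalling to alternative splicing. Khdrbs1, which encodes SAM68, lies on chr4:129703164-129742303 (mm10, minus strand) and overlaps no other annotated gene. It had 99.8 and 111.4 TPM in KO (G6, H8) against 211.2 TPM in WT at day 0. At day 4 it had 144.0 and 147.1 TPM in KO against 238.9 TPM in WT, and at day 8 it had 127.9 and 135.3 TPM in KO against 282.6 TPM in WT. All 6 KO values lay below all 3 WT values, and the KO lines were within 1.12 times of each other at each day. The log2 difference was -0.996 (SE 0.16, adjusted p 0.026) at day 0, -0.74 (SE 0.16, adjusted p 0.169) at day 4, -0.97 (SE 0.16, adjusted p 0.0259) at day 8 and -0.90 (SE 0.11, adjusted p 0.0215) over all days. At day 8 Khdrbs1 was thus 1.96-fold lower in KO. Its longest transcript shares 0.678% of its 50-base words with any other annotated gene.

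Khdrbs3, a relative enriched in brain and testis, stood apart from Khdrbs1. Khdrbs3 had 22.04 and 26.6 TPM in KO against 27.5 TPM in WT at day 0, 28.2 and 32.7 TPM in KO against 24.6 TPM in WT at day 4, and 23.6 and 22.3 TPM in KO against 17.4 TPM in WT at day 8. The KO values were below WT at day 0 and above it at day 4 and day 8, and the largest log2 difference was 0.52 (SE 0.26, adjusted p 0.24) at day 8. Khdrbs1 made up 81.9% and 80.7% of the summed TPM of this pair in KO against 88.5% in WT at day 0, and 84.4% and 85.9% in KO against 94.2% in WT at day 8.

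PTB proteins repress exons by binding pyrimidine-rich tracts. PTBP1 dominates in stem cells and most tissues, and PTBP2 (nPTB) is its paralog of neural precursors. Ptbp2 lies on chr3:119718742-119784466 (mm10, minus strand), where 3 other annotated genes overlap it, and its longest transcript shares 0% of its 50-base words with other genes. It had 34.2 and 29.4 TPM in KO against 61.6 TPM in WT at day 0, 68.0 and 48.5 TPM in KO against 89.8 TPM in WT at day 4, and 50.5 and 38.6 TPM in KO against 111.9 TPM in WT at day 8. The KO lines lay below WT at each day, while the KO range across days (29.4 to 68.0 TPM) reached into that of WT (61.6 to 111.9 TPM). The log2 difference was -1.01 (SE 0.22, adjusted p 0.0584) at day 0, -0.69 (SE 0.23, adjusted p 0.289) at day 4, -1.21 (SE 0.22, adjusted p 0.0309) at day 8 and -0.98 (SE 0.15, adjusted p 0.0364) over all days. With the KO line as a replicate block, Ptbp2 passed the threshold at day 0 as well, which gave 2 members there in place of 1.

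Ptbp1 and Ptbp3 did not pass the threshold of edgeR in any comparison. Ptbp1 had 267.5 and 237.9 TPM in KO against 229.0 TPM in WT at day 0, 248.3 and 217.4 TPM in KO against 236.4 TPM in WT at day 4, and 218.5 and 199.3 TPM in KO against 219.2 TPM in WT at day 8. Its log2 difference was -0.03 (SE 0.10, adjusted p 0.895) over all days. Ptbp3, the PTB protein best known from blood cells, had 40.2 and 52.5 TPM in KO against 38.4 TPM in WT at day 0, 34.4 and 36.9 TPM in KO against 30.8 TPM in WT at day 4, and 44.9 and 84.04 TPM in KO against 101.4 TPM in WT at day 8. Both KO lines were above WT for Ptbp3 at day 0 and day 4 and below it at day 8, and its log2 difference over all days was -0.01 (SE 0.19, adjusted p 0.977).

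The share of Ptbp2 in the PTB family's summed TPM was lower in both KO lines than in WT at each day. It was 10.01% and 9.19% in KO against 18.7% in WT at day 0, 19.4% and 16.0% in KO against 25.2% in WT at day 4, and 16.1% and 11.99% in KO against 25.9% in WT at day 8. Ptbp1 made up 78.2% and 74.4% in KO against 69.6% in WT at day 0, and 69.6% and 61.9% in KO against 50.7% in WT at day 8. Ptbp3 made up 11.8% and 16.4% in KO against 11.7% in WT at day 0, and 14.3% and 26.1% in KO against 23.4% in WT at day 8, where WT lay between the KO lines. These shares are descriptions of single libraries and were not tested. The paralogs can be told apart by reads: aligned coding sequences (GENCODE M21) were 68.3% identical between Ptbp1 and Ptbp2, 71.7% between Ptbp1 and Ptbp3 and 68.4% between Ptbp2 and Ptbp3. The 60 coding bases in which the 3 genes are most alike show how far they differ even there, with capitals on the bases of Ptbp2 and Ptbp3 that differ from Ptbp1.
Ptbp1: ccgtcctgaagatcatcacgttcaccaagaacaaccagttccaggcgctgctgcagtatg
Ptbp2: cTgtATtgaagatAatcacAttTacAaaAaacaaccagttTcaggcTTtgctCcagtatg
Ptbp3: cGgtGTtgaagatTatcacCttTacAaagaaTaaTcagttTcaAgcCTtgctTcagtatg
In this stretch 45 of 60 positions are the same in all 3 genes, Ptbp2 differs from Ptbp1 at 12 positions and Ptbp3 at 14.

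**Figure D2:**
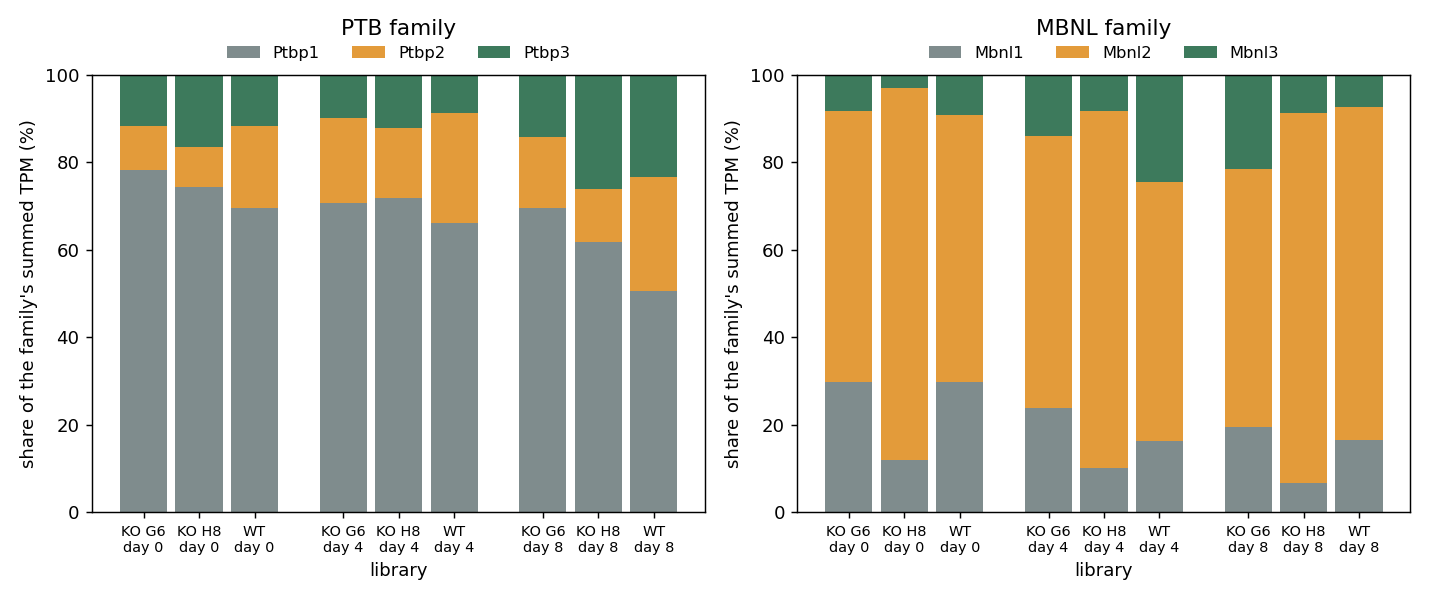
Share (%) of the summed TPM of the PTB family (left) and the MBNL family (right) taken by each gene in each library; within each day the bars run KO G6, KO H8, WT. The Ptbp2 segment is smaller in each KO library than in the WT library of its day, and Mbnl2 takes 81.7% to 85.1% of the MBNL family in KO line H8 against 59.1% to 62.2% in KO line G6.

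MBNL proteins bind YGCY motifs and favour splicing patterns of differentiated cells, and their sequestration causes myotonic dystrophy. Mbnl1 lies on chr3:60472830-60629750 (mm10, plus strand) and overlaps 2 annotated genes. It had 9.69 and 8.45 TPM in KO against 17.7 TPM in WT at day 0, 6.31 and 4.78 TPM in KO against 2.57 TPM in WT at day 4, and 6.74 and 4.48 TPM in KO against 14.9 TPM in WT at day 8. The KO lines were below WT at day 0 and day 8 and above it at day 4, where the WT library had the lowest value of all 9. The log2 difference was -1.10 (SE 0.29, adjusted p 0.085) at day 0, 0.58 (SE 0.30, adjusted p 0.468) at day 4 and -1.46 (SE 0.28, adjusted p 0.0341) at day 8, a 2.76-fold lower level in KO at that day. On log2 TPM the day 8 call was lost, with adjusted p of 0.0605 (pseudocount 1) and 0.0593 (pseudocount 0.1). Over all days it was -0.76 (SE 0.35, adjusted p 0.277).

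Whether the KO effect on Mbnl1 differed between days was tested directly. The difference between the day 4 and day 0 contrasts was 1.68 (SE 0.42, adjusted p 0.143), and that between day 8 and day 4 was -2.04 (SE 0.42, adjusted p 0.147). Over the whole set edgeR called 0 members for the first of these interactions, against 0.456% of genes with a positive and 0.0484% with a negative interaction, with 7 members (15.6%) at an unadjusted p under 0.05, against 17.2% of all genes. For the other it called 0 members and 0% of genes in either direction, with 6 members (13.3%) at an unadjusted p under 0.05, against 16.3% of all genes. DESeq2 called 3 members for the first (Hnrnpa0, Hnrnpa3 and Mbnl1) and 1 for the other (Mbnl1), and limma on log2 TPM called 0 for both. The DESeq2 share over all genes is not given for the interactions, so its member counts cannot be read as an excess. At day 0 DESeq2 called 3737 genes where edgeR called 1347. A difference between days in the KO effect is therefore not shown by edgeR for any member.

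Mbnl2, the MBNL gene best known from brain, had levels that stood apart between the KO lines at each day. It had 20.1 TPM in G6 and 60.3 TPM in H8 against 36.4 TPM in WT at day 0, 16.5 TPM in G6 and 38.8 TPM in H8 against 9.38 TPM in WT at day 4, and 20.5 TPM in G6 and 55.8 TPM in H8 against 68.2 TPM in WT at day 8. WT lay between the KO lines at day 0, below both at day 4 and above both at day 8. The log2 difference of KO from WT was 1.499 (SE 0.96, adjusted p 0.558) at day 4, -0.72 (SE 0.87, adjusted p 0.624) at day 8, 0.22 (SE 0.56, adjusted p 0.863) over all days, and -0.61 in G6 alone against WT over all days. With the KO line as a replicate block Mbnl2 was called at day 8 (5 members in place of 4), and its day 4 difference was 1.36 (SE 0.20, adjusted p 0.108). Mbnl3, a repressor of muscle differentiation, had 2.65 and 2.11 TPM in KO against 5.40 TPM in WT at day 0, 3.73 and 3.94 TPM in KO against 3.88 TPM in WT at day 4, and 7.43 and 5.71 TPM in KO against 6.63 TPM in WT at day 8. It was the lowest member of the set by mean TPM, its lowest count was 295, and its log2 difference was -1.08 (SE 0.30, adjusted p 0.0963) at day 0.

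H8 was set against G6 over the 3 days by the line term of the block fit, a comparison added after these values were seen. edgeR called 0 members, against 0% of genes higher and 0.00403% lower in H8, with 7 members (15.6%) at an unadjusted p under 0.05, against 8.68% of all genes. Mbnl2 had the largest member difference, H8 minus G6, of 1.47 (SE 0.12, adjusted p 0.11). Hnrnph3, which encodes a small member of the hnRNP H/F family, followed with 1.14 (SE 0.18, adjusted p 0.191). DESeq2 called both, and limma on log2 TPM called 0. Hnrnph3 had 67.6 TPM in G6 and 174.2 TPM in H8 against 90.7 TPM in WT at day 0, 51.2 TPM in G6 and 86.7 TPM in H8 against 98.0 TPM in WT at day 4, and 51.0 TPM in G6 and 99.7 TPM in H8 against 116.8 TPM in WT at day 8. H8 was between 1.69 and 2.58 times G6 for Hnrnph3, and between 2.35 and 3 times G6 for Mbnl2. The log2 difference of Hnrnph3 from WT at day 0 was 0.66 (SE 0.74, adjusted p 0.634), and without the H8 library of day 0 it was -0.37. Hnrnph3 overlaps Rufy2 on the opposite strand, and the use of strand in counting is not given in the sources used here.

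**Figure D3:**
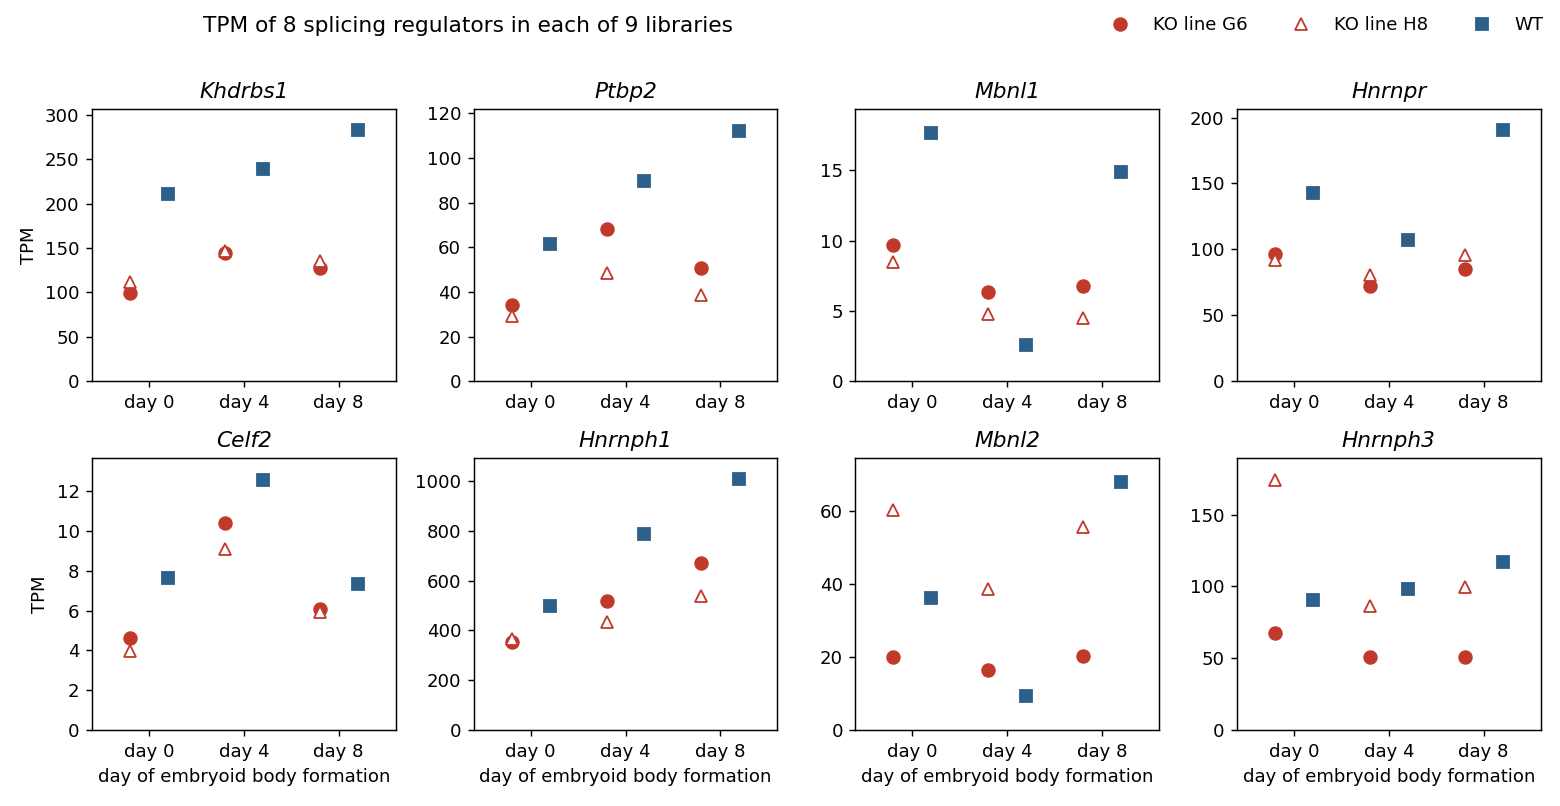
TPM (vertical axes, from 0, a scale for each gene) of 8 genes by day in the KO lines G6 (filled circles) and H8 (open triangles), drawn left of WT (squares). Khdrbs1, Ptbp2, Hnrnpr, Celf2 and Hnrnph1 lie below WT in both KO lines at each day, Mbnl1 crosses WT at day 4, and for Mbnl2 and Hnrnph3 the KO lines stand apart.

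CELF proteins bind GU-rich elements and often act against MBNL proteins. Celf2, on chr2:6539694-7509563 (mm10, minus strand, overlapping 7 annotated genes), had 4.61 and 3.99 TPM in KO against 7.61 TPM in WT at day 0, 10.4 and 9.08 TPM in KO against 12.6 TPM in WT at day 4, and 6.09 and 5.90 TPM in KO against 7.35 TPM in WT at day 8. KO lay below WT at each day, but the log2 difference did not pass the threshold (-0.33, SE 0.18, adjusted p 0.351 over all days). What Celf2 did show was a rise along the KO course, by 1.17 (SE 0.21, adjusted p 0.0187) at day 4 against day 0. Celf1, which is expressed in most tissues, had 71.4 and 63.9 TPM in KO against 59.5 TPM in WT at day 0, 64.2 and 61.2 TPM in KO against 59.99 TPM in WT at day 4, and 62.6 and 47.9 TPM in KO against 70.5 TPM in WT at day 8. Its log2 difference over all days was -0.03 (SE 0.14, adjusted p 0.922).

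Rbfox2, the RBFOX protein of stem cells and epithelia, binds GCAUG. It had 59.2 and 59.4 TPM in KO against 44.8 TPM in WT at day 0, 42.7 and 47.5 TPM in KO against 36.0 TPM in WT at day 4, and 40.8 and 52.8 TPM in KO against 71.4 TPM in WT at day 8. Both KO lines were above WT at day 0 and day 4 and below it at day 8, and its log2 difference was -0.47 (SE 0.20, adjusted p 0.183) at day 8. Elavl1 (HuR), which stabilises AU-rich transcripts, ranged between 34.7 and 58.3 TPM in KO and between 54.4 and 57.4 TPM in WT, with a log2 difference of -0.28 (SE 0.13, adjusted p 0.268) over all days.

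Among the 18 hnRNP genes, 17 had a log2 difference below 0 over all days, with a median of -0.22 and a range of -0.46 to 0.01, and with edgeR 1 passed the threshold at any day. That gene was Hnrnpr, whose product is a close relative of SYNCRIP (hnRNP Q). It lies on chr4:136310942-136359447 (mm10, plus strand) and overlaps 1 annotated gene on the opposite strand, and 3.56% of its 50-base words occur in other genes. It had 96.8 and 92.0 TPM in KO against 142.4 TPM in WT at day 0, 72.2 and 80.3 TPM in KO against 107.2 TPM in WT at day 4, and 85.1 and 96.1 TPM in KO against 190.6 TPM in WT at day 8. All 6 KO values lay below all 3 WT values. The log2 difference from counts was -0.67 (SE 0.15, adjusted p 0.0437) at day 8, and -0.46 (SE 0.12, adjusted p 0.0892) over all days. On log2(TPM + 1) the day 8 difference was larger, at -1.07. At day 8 its adjusted p was 0.0694 with scaling to total counts and 0.059 without the low-count filter. Hnrnph1, which binds G-rich runs, had 352.1 and 365.6 TPM in KO against 498.5 TPM in WT at day 0, 516.8 and 433.9 TPM in KO against 787.7 TPM in WT at day 4, and 669.5 and 536.7 TPM in KO against 1006 TPM in WT at day 8. Both KO lines were below WT at each day, and the log2 difference was -0.61 (SE 0.18, adjusted p 0.0807) at day 8 and -0.43 (SE 0.12, adjusted p 0.11) over all days. DESeq2 called Hnrnph1 in both.

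Hnrnpk, a poly(C)-binding hnRNP, ranged between 567.2 and 701.9 TPM in KO and between 651.7 and 768.0 TPM in WT, below WT in both lines at each day. The levels of the other hnRNP genes spanned a wide range: Hnrnpa2b1 and Hnrnpa1, the core A/B proteins, averaged 1610 and 1483 TPM over the 9 libraries, and Hnrnph2 averaged 84.5 TPM. Hnrnpa0 had 299.7 and 249.4 TPM in KO against 199.2 TPM in WT at day 0, 240.2 and 253.0 TPM in KO against 327.4 TPM in WT at day 4, and 231.4 and 207.2 TPM in KO against 268.9 TPM in WT at day 8. Its interaction between day 4 and day 0 was -0.95 (SE 0.24, adjusted p 0.147). Hnrnpu, which encodes a nuclear scaffold protein, had 366.1 TPM in G6 and 763.6 TPM in H8 against 810.4 TPM in WT at day 0, 673.2 TPM in G6 and 551.9 TPM in H8 against 586.8 TPM in WT at day 4, and 687.1 TPM in G6 and 339.9 TPM in H8 against 771.1 TPM in WT at day 8, so a different KO line was the lower one at day 0 and at day 8. Hnrnpab, Hnrnpc, Hnrnpd, Hnrnpf, Hnrnpm, Hnrnpu, Hnrnpul1, Hnrnpul2 and Syncrip passed the threshold of edgeR in no comparison, and over all days the whole family stayed within 0.46 of 0. Limma on log2(TPM + 1) called Hnrnpd along the KO course from day 0 to day 4 (adjusted p 0.0304), and edgeR called Hnrnpc at day 0 once the G6 library of that day was left out.

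Hnrnpa3 gave different answers from counts and from TPM. Its count difference was -1.57 (SE 0.48, adjusted p 0.117) at day 0, 0.76 (SE 0.51, adjusted p 0.58) at day 4 and 0.18 at day 8, while its log2(TPM + 1) difference was -0.09, 0.13 and -0.92. In TPM it had 156.8 and 113.7 in KO against 142.2 in WT at day 0, 117.0 and 107.6 in KO against 102.5 in WT at day 4, and 95.0 and 106.0 in KO against 190.3 in WT at day 8. No direction is given for it here. The longest transcript of Hnrnpa3 shares 28.2% of its 50-base words with 43 other annotated genes, of which 40 are pseudogenes, most of all with Gm5641. The aligned coding sequence is 98.1% identical to that pseudogene, and a stretch of 60 coding bases of Hnrnpa3 from the middle of the alignment (bases 764 to 823 of its coding sequence) is shown beside bases 726 to 785 of the pseudogene.
Hnrnpa3: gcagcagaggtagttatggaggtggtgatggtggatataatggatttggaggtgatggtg
Gm5641: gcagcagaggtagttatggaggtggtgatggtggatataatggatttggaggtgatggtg
The 60 bases are the same in both, so a read from within them cannot be told apart. The part of such copies in the difference between counts and TPM was not tested: 14 members share at least 10% of their words with other genes, among them U2af1 (59.4%), Hnrnpf (49%) and Hnrnpa1 (46.4%), and the median gap between count and TPM differences at day 0 was 0.06 in these 14 and 0.08 in the other 31. At day 8 the gap exceeded 0.3 in 1 of these 14 and in 4 of the other 31, where Hnrnpu had the largest (0.548).

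**Figure D4:**
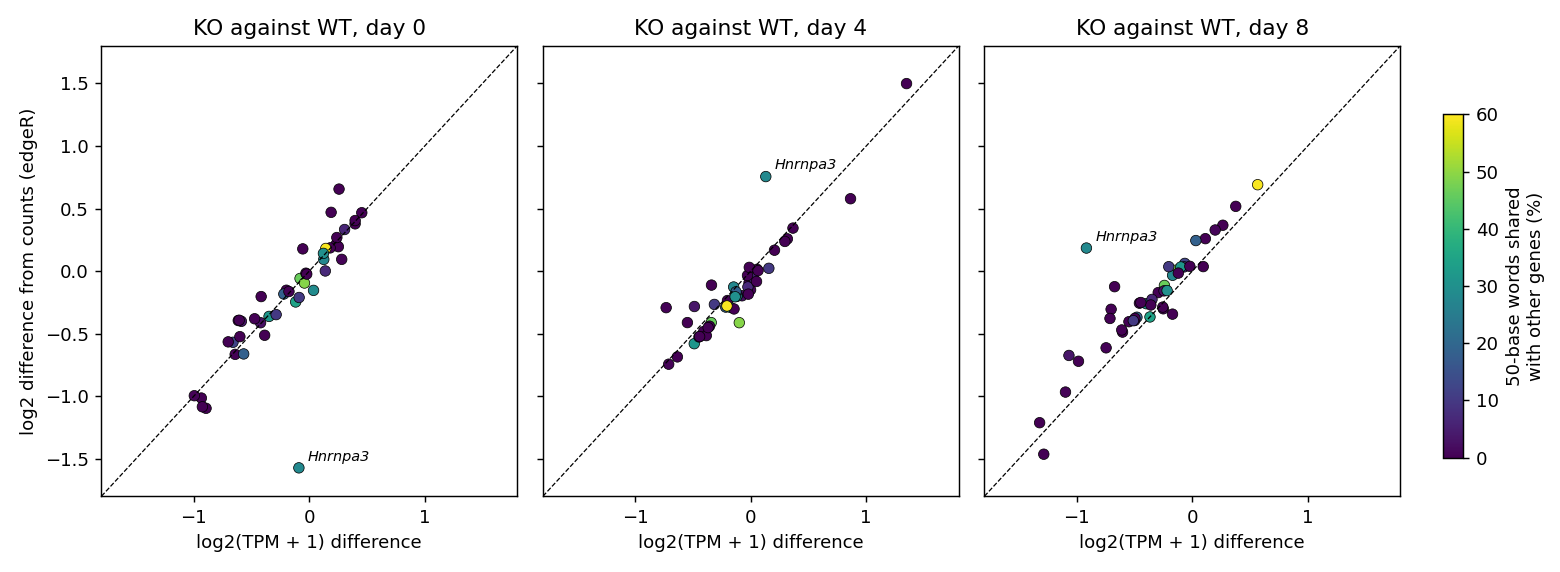
Log2 difference of KO from WT from counts (vertical axis) against the log2(TPM + 1) difference (horizontal axis) for the 45 genes at day 0, day 4 and day 8; the dashed line marks equal values and colour gives the percentage of 50-base words shared with other genes. Hnrnpa3 (28.2% shared) lies farthest from the line at each day, and U2af1 (59.4% shared) lies close to it.

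SR proteins carry arginine and serine repeats and recruit the spliceosome to exons, and the TRA2 proteins bind GAA-rich enhancers. With edgeR on all libraries 0 of the 12 passed the threshold in any comparison, and 10 of 12 had a log2 difference below 0 over all days, with a median of -0.16 and a range of -0.37 to 0.06. At day 8 the count below 0 was 5 of 12. Srsf11, a regulator of microexons, had 189.9 and 185.9 TPM in KO against 293.7 TPM in WT at day 0, 232.8 and 194.2 TPM in KO against 216.9 TPM in WT at day 4, and 231.1 and 223.0 TPM in KO against 320.7 TPM in WT at day 8. Its log2 difference was -0.67 (SE 0.16, adjusted p 0.0682) at day 0, where DESeq2 called it. Along the KO course from day 0 to day 4, limma on log2(TPM + 1) called Srsf1 (adjusted p 0.0229) and Srsf2 (adjusted p 0.043), and DESeq2 called Srsf2. Srsf3, which also acts in mRNA export, had 375.6 and 365.9 TPM in KO against 520.8 TPM in WT at day 4, where its log2 difference was -0.58 (SE 0.17, adjusted p 0.26).

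Srsf4 had 84.98 and 60.7 TPM in KO against 62.9 TPM in WT at day 0, 65.6 and 67.0 TPM in KO against 85.9 TPM in WT at day 4, and 60.6 and 48.5 TPM in KO against 64.7 TPM in WT at day 8. WT lay between the KO lines at day 0, where the log2 difference was 0.47 (SE 0.29, adjusted p 0.372). Srsf2 (SC35), a nuclear speckle protein, had 610.3 and 679.0 TPM in KO against 488.7 TPM in WT at day 0, 444.1 and 454.7 TPM in KO against 587.1 TPM in WT at day 4, and 562.8 and 513.8 TPM in KO against 447.4 TPM in WT at day 8. KO thus lay above WT at day 0 and day 8 and below it at day 4, with interactions of -0.89 (SE 0.24, adjusted p 0.163) and 0.88 (SE 0.24, adjusted p 0.195). The mean levels of the 12 genes, which also include Srsf1, Srsf5, Srsf6, Srsf7, Srsf9, Srsf10, Tra2a and Tra2b, lay between 66.8 and 553 TPM.

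U2AF1 and U2AF2 contact the AG dinucleotide and the pyrimidine tract of the 3' splice site, and SF3B1 holds the branch point. U2af1 had 505.5 and 314.4 TPM in KO against 361.0 TPM in WT at day 0, 319.4 and 354.5 TPM in KO against 388.3 TPM in WT at day 4, and 368.5 and 402.4 TPM in KO against 259.7 TPM in WT at day 8. Its log2 difference at day 8, 0.69 (SE 0.27, adjusted p 0.158), was the highest of the set at that day. U2af2 had a KO range of 214.8 to 295.2 TPM and a WT range of 256.0 to 274.8 TPM, and Sf3b1 a KO range of 171.9 to 249.2 TPM and a WT range of 173.5 to 261.5 TPM. Of the 50-base words of U2af1 and U2af2, 59.4% and 29.9% also occur in pseudogenes. Whether this affects their counts was not tested.

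Along the KO course, 2 members (4.44%) were higher and 0 lower at day 4 than at day 0, where 9.56% of all genes were higher and 5.16% lower. Besides Celf2 this was Ptbp2, higher by 0.81 (SE 0.19, adjusted p 0.0397). Khdrbs1 had 144.0 and 147.1 TPM at day 4 against 99.8 and 111.4 TPM at day 0 in KO, but did not pass the threshold of edgeR. Limma on log2(TPM + 1) called Khdrbs1 (adjusted p 0.0464) and did not call Ptbp2 (adjusted p 0.0518). From day 4 to day 8 edgeR called 0 members, against 0.165% of genes higher and 0.145% lower, with 4 members (8.89%) at an unadjusted p under 0.05, against 13.2% of all genes. DESeq2 called 1 (Celf2, lower) and limma on log2 TPM called 0. The day 0 KO libraries are also the shallowest, which cannot be told apart from day in these comparisons. The KO libraries of a day enter several of the comparisons given here, which are therefore not independent of each other.

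The WT course rests on 1 library per day and has no test. On the log2(TPM + 1) scale 5 members were up and 7 down by more than 0.5 between day 0 and day 4, where 14.2% of all genes were up and 18.6% down. Between day 4 and day 8, 9 members were up and 2 down, where 25.2% of all genes were up and 13.2% down. Mbnl1 differed by -0.55 and -0.71 in KO (G6, H8) against -2.39 in WT at day 4 against day 0, and by 0.08 and -0.08 in KO against 2.15 in WT at day 8 against day 4. Mbnl2 differed by -0.27 and -0.62 in KO against -1.85 in WT over the first interval, and by 0.29 and 0.51 in KO against 2.74 in WT over the later one. At day 8 against day 0, the difference of Ptbp2 was 0.55 and 0.38 in KO against 0.85 in WT, and that of Ptbp3 was 0.16 and 0.67 in KO against 1.38 in WT. The lone WT library of day 4 thus sets both turns of Mbnl1 and Mbnl2, and no other WT library of that day was analysed here. The fibroblast and feeder markers Col1a1, Col1a2, Postn, Thy1 and Lum summed to 160.6 TPM in WT at day 0. Their WT sums were 7.49 and 539.1 TPM at day 4 and day 8, though Thy1 fell at each step. In KO (G6, H8) the sums were 126.4 and 63.2 TPM at day 0, and 15.8 and 19.9 TPM at day 4. The part of cell content in the levels of Mbnl1 and Mbnl2 was not tested.

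Cell type markers moved with genotype at day 8, beside the 4 lower members. All 6 pluripotency markers were higher in KO, with summed TPM of 3134.5 and 3197 in KO against 485.2 in WT. Of 4 cardiac markers 2 were lower, with sums of 4.59 and 7.24 TPM in KO against 96.7 in WT, and of 3 blood and endothelial markers tested 1 was lower, with sums of 50.3 and 49.3 TPM in KO against 614.7 in WT. Most of that WT sum was Hbb-bh1 (461.7 TPM), and most of the KO sums was Pecam1. Pecam1 was above WT in both KO lines (49.0 and 41.6 TPM against 21.1), as was Actn2 among the cardiac markers (1.95 and 3.08 TPM against 1.43). Hbb-bh1 and Hba-x were at 0 in KO line G6. Of 4 endoderm markers 1 was lower (27.3 and 35.1 TPM in KO against 255.2 in WT), and of 5 neural markers 1 was lower (29.9 and 44.7 TPM against 71.6). Of 5 fibroblast and feeder markers 0 passed the test (12.6 and 40.5 TPM against 539.1, with Lum at 0 in KO line G6). The neural markers Sox1 and Pax6 and the fibroblast and feeder marker Thy1 were above WT in both KO lines. The median log2 difference of the neural markers was 0.66. Of 3 primitive streak markers 0 passed (17.5 and 24.1 TPM against 22.3). Their part in the lower Khdrbs1, Ptbp2, Mbnl1 and Hnrnpr was not tested. At day 0 Khdrbs1 was lower when pluripotency sums were 5740 and 5136 TPM in KO against 3495 in WT, with 2 of the 6 markers higher, and 2 of 5 neural markers were lower, with sums of 49.1 and 41.7 TPM in KO against 86.6 TPM in WT. Sox1 went the other way at that day, with 3.43 and 3.68 TPM in KO against 0.79 TPM in WT.

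The calls rest on few libraries. Leaving out any single KO library of day 4 or day 8 left 0 of the 4 members called at day 8, with adjusted p for Khdrbs1 between 0.071 and 0.121 and log2 differences between -0.95 and -0.97. Such a fit keeps 2 residual degrees of freedom. Without both KO libraries of day 0 the same 4 genes were called. At day 0 Khdrbs1 lost its call without any single KO library of day 4 or day 8 (adjusted p 0.0699 to 0.0856). Over all days 0 members were called without the WT library of day 8, the H8 library of day 0 or any single KO library of day 4 or day 8, and Khdrbs1 alone was called without the WT library or the G6 library of day 0. Along the KO course from day 0 to day 4, Celf2 lost its call without either KO library of day 4 (adjusted p 0.104 and 0.117), and Ptbp2 lost it without any single one of the 6 KO libraries (adjusted p 0.0531 to 0.205).

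Promoters are shown for the members that were lower in KO at day 8, although at day 4 Mbnl1 was above WT where Khdrbs1, Ptbp2 and Hnrnpr were below it. RefSeq promoter windows (GRCm38.p6) matched 39 of the 45 members, with 57 windows, and each window was cut to the 250 bases before the start. On both strands and with overlaps allowed, the GC box letters GGGCGG were in 73.7% of the 57 windows against 32.7% of 32851 windows over all genes. CCAAT was in 45.6% against 33.8%, and TATAAA in 8.77% against 12.4%. The windows over all genes were not matched to the members by expression or GC content. The shares are therefore not read as a feature of splicing regulators. Khdrbs1 is named only. Below, capitals mark matches to these 3 motifs on either strand. All 3 windows printed precede a RefSeq start, and those of Ptbp2 and Mbnl1 lie inside the longer extent that GENCODE gives the gene. Ptbp2 is on the minus strand at chr3:119783389-119783638, Mbnl1 on the plus strand at chr3:60500929-60501178, and the first of 2 Hnrnpr windows on the plus strand at chr4:136310692-136310941.
Ptbp2: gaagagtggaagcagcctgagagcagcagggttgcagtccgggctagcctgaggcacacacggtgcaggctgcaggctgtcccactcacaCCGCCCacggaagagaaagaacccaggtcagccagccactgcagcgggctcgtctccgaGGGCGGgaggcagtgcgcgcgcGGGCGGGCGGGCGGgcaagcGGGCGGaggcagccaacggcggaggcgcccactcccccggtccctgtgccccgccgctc
Mbnl1: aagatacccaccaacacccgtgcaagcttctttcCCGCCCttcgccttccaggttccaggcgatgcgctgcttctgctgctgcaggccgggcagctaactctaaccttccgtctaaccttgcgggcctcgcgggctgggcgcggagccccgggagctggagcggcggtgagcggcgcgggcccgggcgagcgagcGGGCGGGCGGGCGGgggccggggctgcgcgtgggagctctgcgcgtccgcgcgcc
Hnrnpr: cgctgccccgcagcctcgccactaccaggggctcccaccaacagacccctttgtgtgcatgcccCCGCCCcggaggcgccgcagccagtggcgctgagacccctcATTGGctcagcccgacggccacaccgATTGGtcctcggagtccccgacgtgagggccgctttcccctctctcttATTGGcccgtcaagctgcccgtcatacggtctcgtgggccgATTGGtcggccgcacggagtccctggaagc
The Ptbp2 window has 6 matches to the GC box and the Mbnl1 window 4, some of them overlapping, and neither has a CCAAT or TATAAA match. The Hnrnpr window has 1 GC box and 4 CCAAT matches, all 4 on the strand opposite to the gene. The other Hnrnpr window, at chr4:136311348-136311597, has 2 GC boxes and 0 CCAAT or TATAAA matches. The other Mbnl1 window, upstream at chr3:60472580-60472829, has 0 GC boxes, 2 CCAAT and 2 TATAAA matches. A match is a description of letters and not a bound site.

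Further splicing genes were taken from 4 lists of other regulators, and their calls are set beside the shares over all genes. Of all genes, 1.11% were higher and 4.33% lower at day 0, 5.01% and 4.86% at day 8, and 0.387% and 0.597% over all days. At day 4 it was 0.00403% in each direction. Of 22 other hnRNP-like and paraspeckle genes 0 passed the threshold at day 0, day 4, day 8 or over all days, with medians of -0.11, -0.20, -0.06 and -0.10. Of 19 SR-related proteins and SR kinases, Bclaf1 was lower at day 0 by -0.83 (SE 0.16, adjusted p 0.0452), with 124.3 and 108.1 TPM in KO against 195.3 TPM in WT. Son, a scaffold of nuclear speckles, was lower at day 8 by -0.87 (SE 0.15, adjusted p 0.029), with 154.0 and 143.6 TPM in KO against 311.1 TPM in WT.

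Of 31 tissue-restricted and other alternative splicing regulators, 1 was higher and 1 lower at day 0, against 1.11% and 4.33% of all genes. At day 8, 4 of the 31 were higher, against 5.01% of all genes. Over all days 2 of the 31 were higher, against 0.387% of all genes. Esrp1, an epithelial splicing regulator, had 6.32 and 9.69 TPM in KO against 36.2 TPM in WT at day 0, a log2 difference of -2.12 (SE 0.34, adjusted p 0.0269). It then rose in KO by 2.77 (SE 0.31, adjusted p 0.00506) to 52.8 and 58.6 TPM at day 4. Msi1, a neural stem cell regulator, had 23.0 and 20.0 TPM in KO against 5.04 TPM in WT at day 0, a difference of 2.16 (SE 0.36, adjusted p 0.0283). Celf5 had 10.5 and 9.21 TPM in KO against 1.604 TPM in WT at day 8 and was higher by 2.17 (SE 0.26, adjusted p 0.0215) over all days. Rbm38 was higher by 0.86 (SE 0.13, adjusted p 0.0364) over all days, and Rbpms2 by 1.499 (SE 0.34, adjusted p 0.0462) at day 8. Celf6 passed at day 8 with 0.188 and 0.228 TPM in KO, but it is listed at 0 in WT, so no fold is given.

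Of 42 core spliceosome genes 1 was higher at day 0 and 1 at day 8, against 1.11% and 5.01% of all genes. Snrpd2, an Sm core protein, had 346.7 and 293.1 TPM in KO against 133.4 TPM in WT at day 0, a log2 difference of 1.27 (SE 0.20, adjusted p 0.0248). Cdc5l had 142.6 and 158.2 TPM in KO against 93.2 TPM in WT at day 8, a difference of 0.81 (SE 0.17, adjusted p 0.038). Along the KO course 5 of the 42 were lower at day 4 than at day 0, against 5.16% of all genes. Cdc5l led with a fall of 1.26 (SE 0.13, adjusted p 0.00436), and Snrpd2 fell by 1.07 (SE 0.15, adjusted p 0.0105). Sf1 and Snrpg followed, with differences of -0.82 each. Rbm20 and Pcbp4 were higher in KO at day 4 than at day 0, by 1.20 and 0.86. Their lists had 2 of 31 and 1 of 22 genes higher there, against 9.56% of all genes. The 4 lists, like the 45 genes, were chosen with earlier results of these data known.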

How the data were processed

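The 9 polyA+ RNA-seq libraries came as deposited counts per gene, which are raw and unnormalized, and as TPM per gene, normalized by the authors for length and library. HISAT2 2.0.5, StringTie 1.3.3b and mm10 are named per the submitters' processing notes, without their roles; the annotation, the use of strand and options are not given in the sources used here. The 259 entries without a gene name (0.0242% to 0.0398% of counts) were left out. Total counts are given with the results.

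Genes with at least 0.079 CPM (10 counts in the median library) in 2 or more libraries were tested with edgeR 4.0.16 (R 4.3.3), with TMM scaling, the quasi-likelihood test and Benjamini-Hochberg adjustment over all 24794 genes, threshold 0.05. KO against WT at a day, the KO course and the interactions used 1 mean per group (3 residual and 3.12 prior degrees of freedom, biological coefficient of variation 0.348), so the spread comes from the KO lines. The comparison over all days used day plus genotype (5 and 3.49, 0.494), with the libraries of a line at different days taken as replicates. TPM were analysed as log2(TPM + 1) and log2(TPM + 0.1) with limma 3.58.1, a scale that understates changes of low genes. Other alternatives were RLE and total count scaling, no filter, DESeq2 1.42.0, leaving out libraries and the KO line as a replicate block. The block pairs libraries by the line named in the labels, and H8 minus G6 differences correlated between days with r of 0.202 (day 0 and day 4), 0.173 (day 0 and day 8) and 0.419 (day 4 and day 8) over 15732 genes. The tests were checked on simulated data with larger changes than those of the called members and a smaller spread than the real fits. Recovery at the sizes and spread seen here was not checked.

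The members and lists were chosen with earlier results of these data known. Values in every library are given for members past the threshold, for the 2 highest and 2 lowest members of each comparison of KO with WT, and for the PTB, MBNL, CELF, KHDRBS and RBFOX families, with some other members named after their values were seen. From the other lists up to 4 called genes per comparison are named. The comparison of KO lines was added after values were seen. Coordinates, overlaps and shared 50-base words come from GENCODE M21 (mm10), and promoters from RefSeq (GRCm38.p6). Proteins were not analysed here.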

Additional observations from a re-analysis of the deposited data

How the results depend on the processing

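Of the members called in a comparison of KO with WT, none changed direction under any alternative run. At day 0, 1 member was called, against 6 by DESeq2, 2 with the replicate block and 0 to 2 when a library was left out. At day 4, 0 were called, against 1 by DESeq2. At day 8, 4 were called, against 5 with the block (Mbnl2 added), 5 by DESeq2 (Hnrnph1 added), 3 with total counts, without the filter and on log2 TPM, and 0 to 4 when a library was left out, and Mbnl1 had adjusted p of 0.0605 and 0.0593 on log2 TPM. Over all days 2 were called, against 5 by DESeq2, 1 and 4 on log2 TPM with pseudocounts 1 and 0.1, 0 to 2 when a library was left out, and 0 without the day 0 libraries or with line G6 or H8 alone. From day 0 to day 4 in KO 2 were called, against 4 with total count scaling, 6 by DESeq2, 5 and 6 on log2 TPM (pseudocounts 1 and 0.1) and 0 to 3 when a library was left out. DESeq2 called 1 member from day 4 to day 8, 3 and 1 for the interactions and 2 between the KO lines, where edgeR called 0. Its totals over all genes are given for day 0 and day 4 only. Elsewhere its member counts cannot be set against a share of all genes. The replicate block changed no other member call. Fits without a library have fewer residual degrees of freedom; the cause of the other differences was not tested. Hnrnph3 at day 0 ranged between -0.37 (without the H8 library of day 0) and 1.24. Mbnl2 over all days ranged between -0.31 (without the WT library of day 4) and 0.78 when a library was left out, with -0.12 and -0.03 without the H8 library of day 0 or day 4, and was -0.61 with line G6 alone and 0.85 with H8 alone. Over all genes, DESeq2 called 3737 at day 0, against 1347 by edgeR, and 59.2% of calls at day 8 were higher in KO with total counts and 32.1% on log2(TPM + 1), against 50.7%. Members below 0 over all days numbered 40 with RLE, 33 with total counts and 39 on log2(TPM + 1), against 38. Low counts fall on multiples of 4 more often than by chance, so depth may overstate the precision of low genes.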
